A study of Mus musculus with 35 samples.

Results

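The transcripts followed here code for 6 inhibitory receptors that mark exhausted CD8 T cells: Pdcd1 (PD-1), Ctla4 (CTLA-4), Tigit (TIGIT), Havcr2 (TIM-3), Lag3 (LAG-3) and Cd160 (CD160). They were chosen by gene symbol, as 6 of the 22865 genes counted. The cells were CD8 T cells sorted from C57BL/6 mice aged 13 months, profiled as bulk 3′-end RNA-seq. Liver cells of mice on the diet labelled CD-HFD were split by the chemokine receptor CXCR6 into CXCR6pos (5 libraries) and CXCR6neg (6 libraries). The same fractions came from mice on the diet labelled ND, with 6 CXCR6pos and 4 CXCR6neg libraries. Spleen cells were sorted as negative for another chemokine receptor, CX3CR1 (CX3CR1neg), with 6 CD-HFD and 5 ND libraries. No other treatment or allele is labelled. Whether each replicate is an animal of its own is not labelled either, and p-values therefore cover the sample-to-sample spread alone, which may be technical. A pair of columns, replicate 1 of ND CXCR6neg and replicate 6 of ND spleen, was identical in all 22865 genes, that is, differed by less than the sampling noise. Because one library cannot belong to both groups, the pair was left out.

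Exhaustion is a state that CD8 T cells reach under lasting antigen, in which effector functions wane and several inhibitory receptors are carried together on the surface. PD-1 binds PD-L1 and PD-L2 and recruits the phosphatase SHP-2 to the activated T cell receptor complex. CTLA-4 competes with the costimulatory receptor CD28 for CD80 and CD86, and TIGIT competes with the activating receptor CD226 for CD155. TIM-3 binds galectin-9 among other ligands, LAG-3 is a relative of CD4 that binds MHC class II, and CD160 binds the herpesvirus entry mediator that BTLA also uses. In the liver, CXCR6 is known as a marker of resident CD8 T cells.

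The genes lie on 5 chromosomes of the build GRCm38, with spans from GENCODE. Pdcd1 spans chromosome 1, 94038305 to 94052553 on the minus strand, and Ctla4 spans chromosome 1, 60887000 to 60915832 on the plus strand. Tigit spans chromosome 16, 43648867 to 43664146 (minus), and Havcr2 spans chromosome 11, 46454935 to 46481255 (plus). Lag3 spans chromosome 6, 124904361 to 124911705 (minus), and Cd160 spans chromosome 3, 96798763 to 96829351 (minus). Of these, 2 overlap another annotated gene. Ctla4 overlaps the ribosomal pseudogene Rpl18-ps1 on the same strand, which had 17929 counts over the 32 libraries, and Cd160 overlaps Pdzk1 on the other strand, which had 12. Counts of overlapping genes cannot be told apart with certainty. The 250 bases before the RefSeq start were read for the same build (GRCm38.p6), with entries for Pdcd1, Ctla4, Tigit, Havcr2 and, with 2 starts, Cd160. RefSeq and GENCODE starts can differ. The RefSeq start of Ctla4 lies inside the GENCODE span, so that its window does not precede the GENCODE start. Shown are the 2 receptor genes with the lowest adjusted p for diet, Pdcd1 and Havcr2, then Ctla4, and the upstream start of Cd160, the receptor gene whose levels were set apart from the others. Capitals mark matches on either strand to short cores of 5 factor families known to act on receptor genes: TGGAAA (NFAT), TGANTCA (AP-1, where BATF binds), AAGGTCA (NR4A), GGTGTGA (T-box) and CTTTGA (TCF and LEF).
Pdcd1, chr1:94052554-94052803, minus strand: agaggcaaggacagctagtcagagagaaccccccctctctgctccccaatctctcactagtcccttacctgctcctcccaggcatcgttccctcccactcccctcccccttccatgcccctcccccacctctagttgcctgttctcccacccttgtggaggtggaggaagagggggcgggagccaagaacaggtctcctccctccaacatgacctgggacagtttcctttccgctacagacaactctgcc
Havcr2, chr11:46454681-46454930, plus strand: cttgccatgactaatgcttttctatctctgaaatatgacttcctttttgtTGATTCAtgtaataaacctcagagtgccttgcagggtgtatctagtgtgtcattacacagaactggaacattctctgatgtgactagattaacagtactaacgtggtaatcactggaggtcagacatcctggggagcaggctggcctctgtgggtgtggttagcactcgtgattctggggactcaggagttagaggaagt
Ctla4, chr1:60908775-60909024, plus strand: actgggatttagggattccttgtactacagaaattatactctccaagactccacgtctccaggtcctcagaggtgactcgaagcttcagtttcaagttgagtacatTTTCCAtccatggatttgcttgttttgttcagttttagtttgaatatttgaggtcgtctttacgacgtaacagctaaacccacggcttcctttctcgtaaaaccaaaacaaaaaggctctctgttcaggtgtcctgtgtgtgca
Cd160, chr3:96829352-96829601, minus strand: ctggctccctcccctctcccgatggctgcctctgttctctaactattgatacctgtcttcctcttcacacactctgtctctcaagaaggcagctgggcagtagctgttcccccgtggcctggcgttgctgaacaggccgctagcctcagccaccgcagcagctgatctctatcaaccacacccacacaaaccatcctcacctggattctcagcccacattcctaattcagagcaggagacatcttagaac
Havcr2 held an AP-1 core that begins 200 bases before its RefSeq start, and Ctla4 an NFAT core 144 bases before its RefSeq start. The windows of Pdcd1, of Tigit and of the upstream start of Cd160 held none of the 5 cores. The other Cd160 window (chromosome 3, 96814522 to 96814771) held a T-box core and 2 TCF cores. Among all 32851 windows of that length, 18.6% held the NFAT core, 6.75% the AP-1 core, 4.08% the NR4A core, 3.33% the T-box core and 13.8% the TCF core. A match describes letters in the window only.

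Total counts per library ran from 15633 to 978896 with a median of 308123. The shallowest libraries were ND CXCR6pos replicate 1 (15633 counts) and CD-HFD CXCR6pos replicate 5 (57168 counts). A count of 0 in them still allows a level of up to 148 and 53.1 CPM, taking 3 counts as the limit, so that their zeros say little. Levels are CPM, that is, counts scaled with TMM factors to a common library total over the 6174 genes tested. Intervals and limits of single libraries cover counting error only. The 5 CD8 T cell markers summed to between 3447 and 8111 CPM in every library, which does not show that a sort was pure. Markers of other cells were present as well. Those of plasmacytoid dendritic cells summed to 604 to 965 CPM in CD-HFD CXCR6neg, and those of B cells to 333 to 1324 CPM in CD-HFD spleen. Cxcr6, the gene of the sort, was at 724 ± 130 CPM in CD-HFD CXCR6pos and 86.7 ± 29.5 in CD-HFD CXCR6neg (SD, n = 5 and 6), with no overlap. Under ND the libraries labelled CXCR6pos (201 to 812 CPM, n = 6) and CXCR6neg (40.0 to 450.0 CPM, n = 4) overlapped in Cxcr6. Each test below that involves an ND liver group was also run without the libraries labelled ND CXCR6pos replicate 6 and ND CXCR6neg replicate 4. These are the lowest CXCR6pos and the highest CXCR6neg library in Cxcr6.

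**Figure D1:**
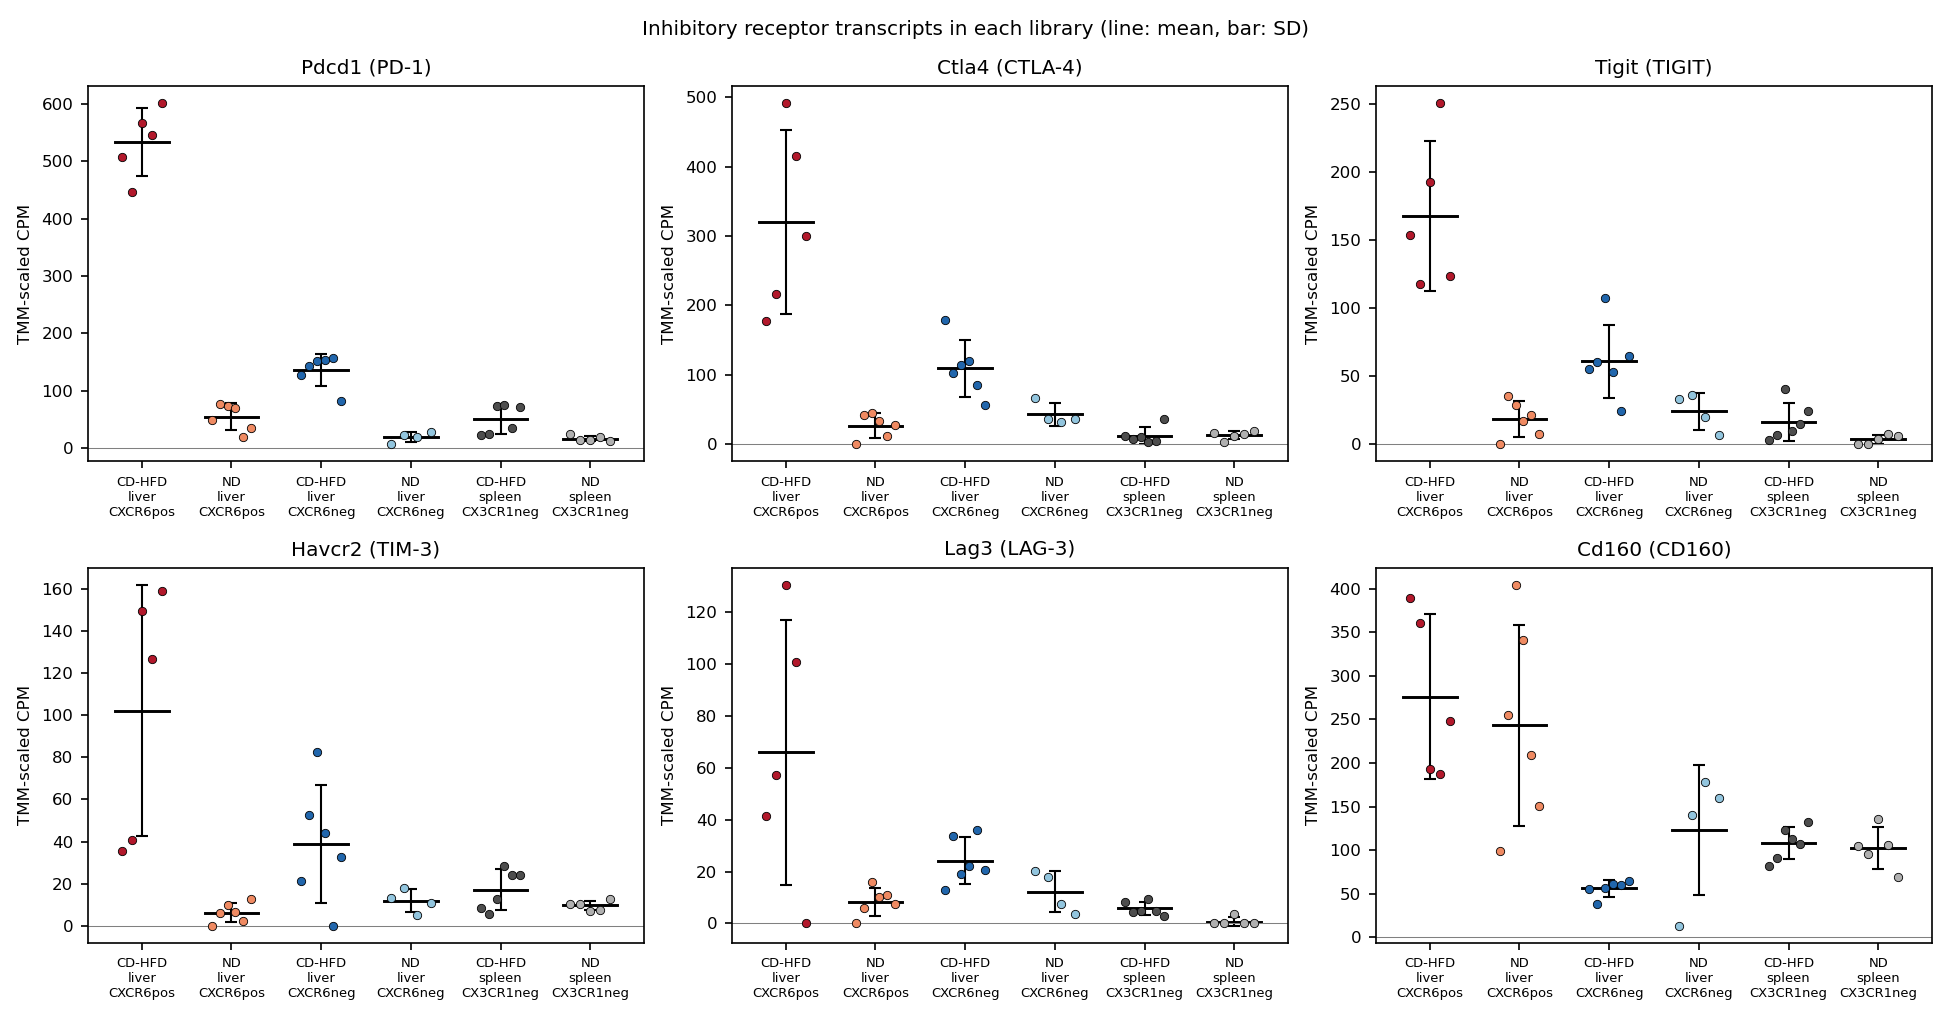
Level of each receptor transcript (TMM-scaled CPM, linear axis from 0) in 32 libraries of 6 groups; points are libraries, the line is the group mean and the bar the SD. Pdcd1 sits between 446 and 601 CPM in CD-HFD liver CXCR6pos and at or under 157 CPM in every other library, while Cd160 of CD-HFD and ND liver CXCR6pos overlaps.

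The first question was what the diet does to these receptors in hepatic CXCR6pos cells. Of the 6 transcripts, 5 were 7.15 to 12.3 times higher in CD-HFD than in ND CXCR6pos cells, and Cd160 was not distinguishable between the diets. Among all genes tested, 4.84% were called higher in this comparison. In bulk samples, a change in the share of cells that carry a transcript and a change in its amount per cell cannot be told apart. Havcr2 and Lag3 reached the level of the filter on low counts only in CD-HFD liver libraries, in 8 and 6 of them, so that their passing the filter rested on the groups where they were high. Tigit reached it in 5 CD-HFD CXCR6pos and 5 CD-HFD CXCR6neg libraries, and elsewhere only in 1 ND CXCR6neg and 1 CD-HFD spleen library. Its passing the filter therefore rested on the groups where it was high as well.

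Pdcd1, the gene of PD-1, was at 508, 446, 566, 545 and 601 CPM in the 5 CD-HFD CXCR6pos libraries, against a lowest value of 19.4, a median of 59.7 and a highest of 76.9 CPM in the 6 ND CXCR6pos libraries. The lowest CD-HFD library lay well above the highest ND one, and the CD-HFD libraries were close to each other, with a coefficient of variation of 11.2%. The log2 fold change was 3.38 ± 0.25 (SE, edgeR's quasi-likelihood test, adjusted p = 8.25e-13). Ctla4, whose product withholds CD80 and CD86 from CD28, was at 177, 216, 492, 415 and 301 CPM in CD-HFD CXCR6pos, against 0, 30.5 and 45.0 CPM (lowest, median and highest) in ND CXCR6pos. The groups did not overlap, and CD-HFD replicates 3 and 4 stood highest (log2 fold change 3.47 ± 0.35, adjusted p = 1.7e-08).

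Tigit was at 154, 118, 193, 251 and 124 CPM in CD-HFD CXCR6pos and at 0, 19.1 and 35.5 CPM (lowest, median and highest) in ND CXCR6pos. Again no library crossed over, and the log2 fold change was 3.12 ± 0.41 (edgeR, adjusted p = 1.54e-06). Havcr2, the gene of TIM-3, was at 35.4, 40.5, 149, 127 and 159 CPM in CD-HFD CXCR6pos, against 0, 6.3 and 12.6 CPM in ND CXCR6pos. Replicates 1 and 2 were low and replicates 3 to 5 high within the CD-HFD group, yet all 5 exceeded every ND library (3.62 ± 0.46, adjusted p = 2.74e-09). Lag3 was at 41.3, 57.4, 131, 101 and 0 CPM in CD-HFD CXCR6pos, against 0, 8.78 and 16.1 CPM in ND CXCR6pos. Here the groups overlapped through CD-HFD replicate 5, which had 57168 counts in all and none of Lag3, while the other 4 exceeded every ND library (2.84 ± 0.43, adjusted p = 1.36e-07). These 5 calls held without each library in turn, with the largest adjusted p over all alternatives run at 2.63e-05.

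Cd160, whose product is anchored by a lipid and has no signalling tail of its own, was at 390, 361, 193, 188 and 248 CPM in CD-HFD CXCR6pos. In ND CXCR6pos it was at 98.5, 232 and 405 CPM (lowest, median and highest). The groups overlapped over most of their range, and the log2 fold change was 0.07 with a 95% interval of -0.48 to 0.63 (edgeR, adjusted p = 0.924). The make-up of the counts differed accordingly, and a 3′ tag count carries no length to correct for. Of the counts of the 6 receptors, Cd160 took 18.7% in CD-HFD CXCR6pos (11.2% to 29.9% over libraries), against 69.4% in ND CXCR6pos (60.6% to 76.4%). Pdcd1 took 35.2% in CD-HFD CXCR6pos (32.9% to 42.0%), against 13.1% in ND CXCR6pos (7.09% to 33.3%).

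The CD-HFD CXCR6pos libraries themselves fell apart in some receptors and not in others. Replicates 1 and 2 had less Ctla4 (177 and 216 CPM) and less Havcr2 (35.4 and 40.5 CPM) than replicates 3 to 5 (301 to 492 CPM and 127 to 159 CPM). They had more Cd160 (390 and 361 CPM) than replicates 3 to 5 (188 to 248 CPM). Pdcd1 was also lower in replicates 1 and 2 (508 and 446 CPM) than in replicates 3 to 5 (545 to 601 CPM). That margin was smaller, and the counting intervals overlapped. Cxcr6 was at 573 and 601 CPM in replicates 1 and 2 and at 803, 776 and 867 CPM in replicates 3 to 5. The sum of gamma delta and NKT cell markers moved with this split. It was at 1234 and 1110 CPM in replicates 1 and 2 and at 473, 511 and 354 CPM in replicates 3 to 5. In this group the sum rested on gamma chain genes, with the delta chain gene Trdc nearly absent and Zbtb16 absent, as given below. The part of such cells in the split was not tested. The labels give no difference between these libraries, and no test was made between them. Without replicates 1 and 2, the same 5 receptors were called and Cd160 had a log2 fold change of -0.41 (edgeR, adjusted p = 0.553).

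Markers of other cells were set beside these results. CD4 and regulatory T cell markers summed to 125 to 248 CPM in CD-HFD CXCR6pos and 22.6 to 49.2 CPM in ND CXCR6pos, and 5 of 5 of these markers were detected in CD-HFD CXCR6pos. Their defining genes were nearly absent, however. Foxp3 had 1 count over the CD-HFD and 0 over the ND CXCR6pos libraries, and Cd4 had 1 and 2. The higher sum came from Izumo1r (91.7 ± 11.3 against 24.6 ± 13.3 CPM) and Ikzf2 (70.6 ± 43.2 against 6.26 ± 6.17 CPM; SD, n = 5 and 6). They code for folate receptor 4 and Helios, which regulatory T cells are known to carry. Markers of NK cells, at 20.3 to 124 CPM in CD-HFD CXCR6pos and 98.5 to 420 CPM in ND CXCR6pos, included no count of Ncr1 in either group. Plasmacytoid dendritic cell markers ran from 53.1 to 137 CPM in CD-HFD CXCR6pos and from 0 to 616 CPM in ND CXCR6pos, where replicates 1 to 5 were at 38.5 CPM or less and replicate 6 alone was high. Gamma delta and NKT cell markers summed to 354 to 1234 CPM in CD-HFD CXCR6pos and 138 to 601 CPM in ND CXCR6pos, with the members going in both directions. The gamma chain genes Tcrg-C2 (549 ± 376 CPM in CD-HFD and 198 ± 83.6 CPM in ND, adjusted p = 0.00176) and Tcrg-C4 (172 ± 49.9 and 65.2 ± 65.7 CPM, adjusted p = 1.63e-09) were higher in CD-HFD CXCR6pos by edgeR (SD, n = 5 and 6). Tcrg-C1 (log2 fold change -1.95 ± 0.55, edgeR, adjusted p = 0.01) was lower, as was the defining delta chain gene Trdc, with 2 counts over CD-HFD and 108 over ND CXCR6pos. Zbtb16 had 0 and 2 counts. The gamma chain genes are near copies, so that the split of reads between them is uncertain. The part of these cells in the receptor values was not tested.

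The next question was whether the diet moved the same receptors in hepatic cells sorted as CXCR6neg. Pdcd1 alone of the 6 passed the test there, and 0.292% of all genes were called higher in this comparison. Pdcd1 was at 82.8, 148 and 157 CPM (lowest, median and highest) in CD-HFD CXCR6neg, against 6.67, 22.6, 19.8 and 28.3 CPM in the 4 ND CXCR6neg libraries. The groups did not overlap (log2 fold change 2.63 ± 0.40, edgeR, adjusted p = 0.000312). The call held without each library in turn.

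Ctla4 was at 56.2, 108 and 179 CPM in CD-HFD CXCR6neg and at 66.7, 36.1, 32.1 and 35.4 CPM in ND CXCR6neg, with overlap through ND replicate 2 (1.46 ± 0.43, edgeR, adjusted p = 0.141). Havcr2 was at 0, 38.3 and 82.4 CPM in CD-HFD CXCR6neg, against 13.3, 18.1, 4.95 and 10.6 CPM in ND CXCR6neg (1.91 ± 0.54, adjusted p = 0.0871). Its zero was replicate 5, the shallowest of the group, for which 3 counts are 36.2 CPM. Tigit had a log2 fold change of 1.5 ± 0.53 (edgeR, adjusted p = 0.316) and Lag3 of 1.10 ± 0.57 (adjusted p = 0.595), with overlapping groups. Cd160 pointed the other way. It was at 37.6, 58.7 and 65.0 CPM in CD-HFD CXCR6neg, against 13.3, 140, 178 and 159 CPM in ND CXCR6neg (-1.29 ± 0.40, edgeR, adjusted p = 0.198). Replicate 2 of ND CXCR6neg stood far below its group in Cd160, and without it Cd160 passed the test (-1.53, edgeR, adjusted p = 0.0143). That library was singled out by its Cd160 value, so that this pass is not independent support. It also had the least Cxcr6 of its group (40.0 CPM, against 194, 450 and 227 CPM). CD-HFD CXCR6neg libraries held 52.9 to 124 CPM of Cxcr6. The part of Cxcr6 in the Cd160 difference was not tested. The calls for diet in CXCR6neg cells depended on the fit. In a fit of those 2 groups alone, 5 of the 6 receptors passed the test, Ctla4 (adjusted p = 0.000568), Tigit (0.0101), Havcr2 (0.025) and, lower, Cd160 (0.0314) beside Pdcd1. The share of all genes called in that fit is not given here, so that the count cannot be read as particular to the receptors.

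No receptor passed the test for diet in the spleen, where 0.0162% of all genes were called higher. Pdcd1 was at 23.3, 53.0 and 75.3 CPM in CD-HFD spleen, against 23.6, 13.7, 14.3, 18.4 and 12.5 CPM in ND spleen. Only CD-HFD replicate 1 lay within the ND range (1.43 ± 0.37, edgeR, adjusted p = 0.444), and without replicate 1 or replicate 2 of CD-HFD spleen the adjusted p was 0.0168 or 0.0148. Tigit was at 2.74, 12 and 40.5 CPM in CD-HFD spleen and at 0, 0, 3.59, 7.67 and 6.27 CPM in ND spleen (2.07 ± 0.76, adjusted p = 0.935). Lag3 had 18 counts over CD-HFD spleen and 1 over ND spleen, a ratio of 11.7 with an exact 95% counting interval of 1.85 to 489 (edgeR, adjusted p = 0.698). Ctla4 (-0.04 ± 0.62), Havcr2 (0.54 ± 0.49) and Cd160 (0.02 ± 0.29, all log2 fold change ± SE) had intervals that span 0. At an unadjusted p under 0.05 edgeR gave 3 of the 6 in this comparison, Pdcd1, Tigit and Lag3, and 274 of all 6174 genes. DESeq2 called 0 of the 6 after adjustment.

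**Figure D2:**
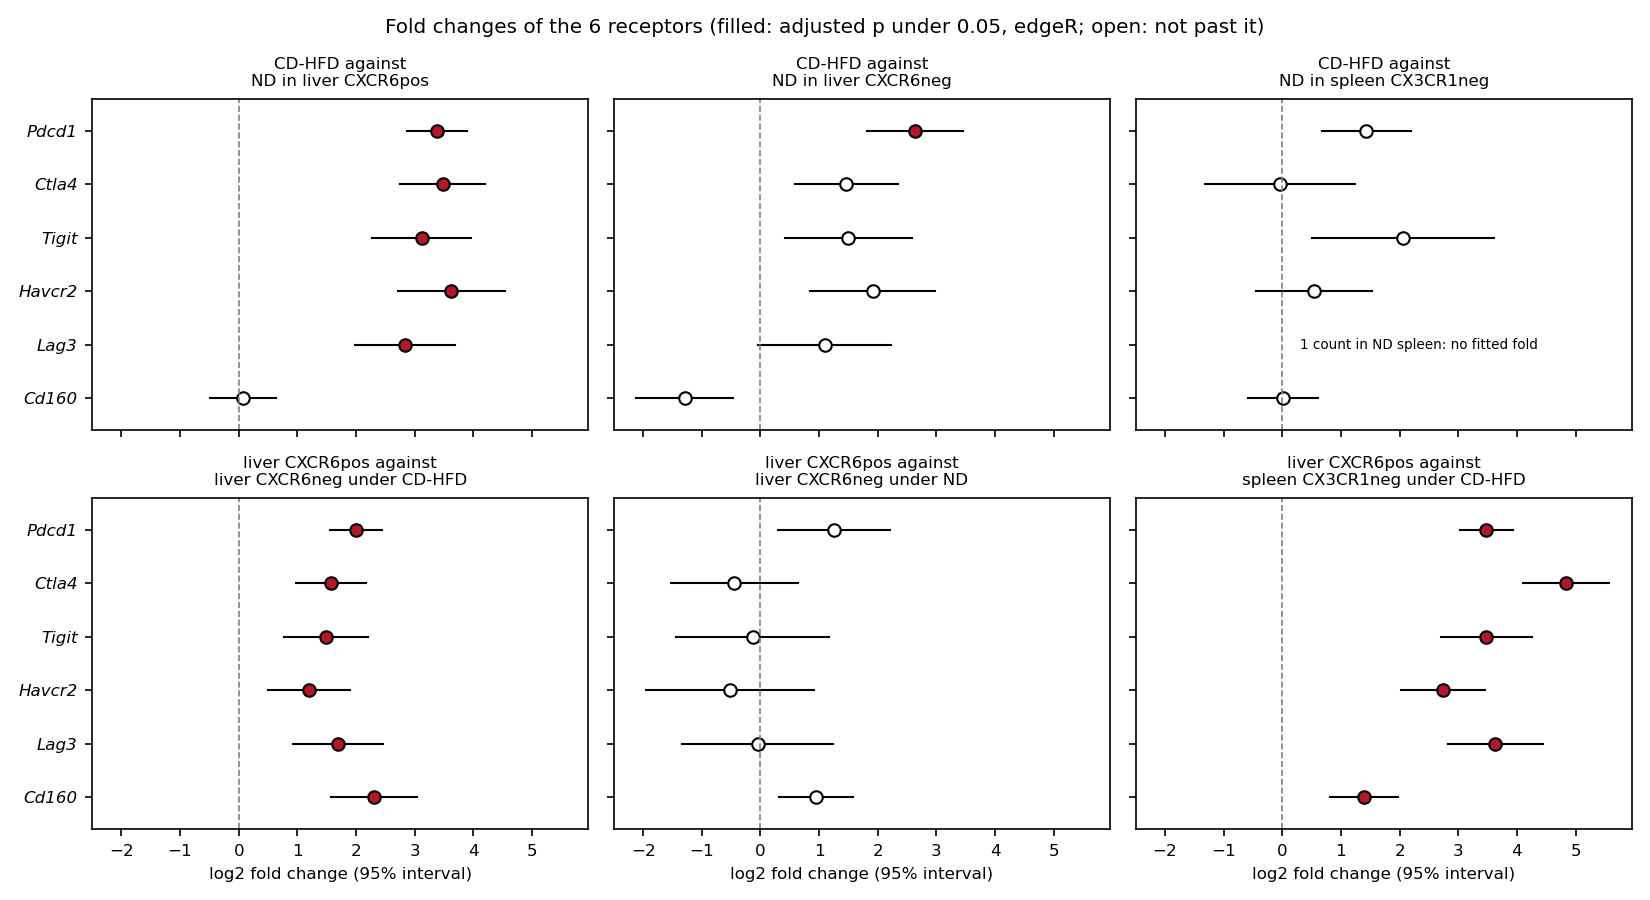
Log2 fold change of each receptor with its 95% interval in 6 comparisons, the group named first in a panel over the one named second; filled circles passed an adjusted p of 0.05 and open circles did not. In CXCR6pos cells 5 receptors lie between 2.84 and 3.62 and Cd160 lies at 0.07, whereas Cd160 has the highest value of the 6 (2.30) in CXCR6pos against CXCR6neg under CD-HFD.

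Whether the diet changed the receptors by different amounts in different cells was tested as an interaction. Between CXCR6pos and spleen cells, 3 of the 6 passed as more strongly raised in CXCR6pos, where 1.21% of all genes were called in that direction. The difference in log2 fold change was 1.95 ± 0.52 for Pdcd1 (edgeR, adjusted p = 0.0233), 3.52 ± 0.81 for Ctla4 (adjusted p = 0.00793) and 3.08 ± 0.74 for Havcr2 (adjusted p = 0.00539). Havcr2 held in all alternatives. Pdcd1 lost its call without ND spleen replicate 1 or 4 (adjusted p = 0.079 and 0.0881), in a fit of the 4 groups alone (0.0726) and without the libraries at odds with Cxcr6 (0.0578), and Ctla4 without ND spleen replicate 4 (0.0551). Tigit differed by 1.05 (95% interval -1.42 to 3.53) and Cd160 by 0.06 (-0.76 to 0.87), and neither passed.

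Between the liver fractions, none of the 6 interactions passed in edgeR, where 0.437% of all genes were called in the direction of CXCR6pos. An unadjusted p under 0.05 was reached by 5 of the 6, and by 703 of all 6174 genes. DESeq2 called 0 as well. The differences ran from 0.75 ± 0.58 for Pdcd1 to 2.02 ± 0.62 for Ctla4 (edgeR, adjusted p = 0.721 and 0.111). Ctla4 passed without CD-HFD CXCR6neg replicate 1 (2.24, adjusted p = 0.0468) and without CD-HFD CXCR6pos replicates 1 and 2 (2.39, adjusted p = 0.0044). Between CXCR6neg and spleen cells none of the 6 passed, and no gene at all (0%) was called higher. An unadjusted p under 0.05 was reached there by Cd160 alone of the 6 (-1.30, edgeR, adjusted p = 0.782), and by 319 of all 6174 genes. DESeq2 called 0 of the 6.

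The second question was how CXCR6pos cells differ from CXCR6neg cells of the same liver setting. Under CD-HFD, 6 of 6 receptors were higher in CXCR6pos, 2.29 to 4.94 times, and among all genes 4.76% were called higher. Cd160 had the largest change, at 188 to 390 CPM in CXCR6pos and 37.6 to 65.0 CPM in CXCR6neg, a log2 fold change of 2.30 ± 0.36 (edgeR, adjusted p = 3.49e-05). Pdcd1 was at 446 to 601 CPM in CXCR6pos, against 82.8 to 157 CPM in CXCR6neg (2.00 ± 0.22, adjusted p = 2.26e-08). Tigit was at 118 to 251 CPM in CXCR6pos and 24.1 to 108 CPM in CXCR6neg (1.49 ± 0.35, adjusted p = 0.00366). The groups did not overlap in any of these 3.

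Ctla4 overlapped by a narrow margin, since CXCR6neg replicate 1 (179 CPM) matched CXCR6pos replicate 1 (177 CPM), with a log2 fold change of 1.57 ± 0.29 (edgeR, adjusted p = 0.000294). Lag3 overlapped through the shallow CXCR6pos replicate 5 (1.69 ± 0.39, adjusted p = 0.000693). Havcr2 had the smallest change (1.20 ± 0.35, adjusted p = 0.013), with CXCR6pos replicates 1 and 2 (35.4 and 40.5 CPM) within the CXCR6neg range of 0 to 82.4 CPM. Its call was lost without CXCR6pos replicate 3 or 4 (adjusted p = 0.0756 and 0.123) and in a fit of those 2 groups alone (0.137). The fractions also differed in markers of other cells. Plasmacytoid dendritic cell markers summed to 53.1 to 137 CPM in CXCR6pos and 604 to 965 CPM in CXCR6neg, and NK cell markers to 20.3 to 124 CPM in CXCR6pos and 463 to 553 CPM in CXCR6neg. The NK sum in CXCR6neg came mostly from Tyrobp (366 ± 51.5 CPM) and Fcer1g (121 ± 16.1 CPM; SD, n = 6). Ncr1 had 0 counts there, so that the sum does not establish NK cells. Siglech, which marks plasmacytoid dendritic cells, had 2 counts over CXCR6pos and was at 123 to 241 CPM in CXCR6neg, and the part of such cells in the receptor values was not tested.

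Under ND no receptor passed between the fractions, and no gene at all (0%) was called higher. Pdcd1 had a log2 fold change of 1.25 ± 0.47 (edgeR, adjusted p = 0.417) and Cd160 of 0.94 ± 0.31 (adjusted p = 0.322). Ctla4 (95% interval -1.53 to 0.63), Tigit (-1.44 to 1.18), Havcr2 (-1.95 to 0.91) and Lag3 (-1.34 to 1.24) had intervals that span 0 and are wide. At an unadjusted p under 0.05 edgeR gave 2 of the 6, Pdcd1 and Cd160, and 501 of all 6174 genes. DESeq2 called 0 of the 6 after adjustment. Without the libraries at odds with Cxcr6, Cd160 passed (1.34, edgeR, adjusted p = 0.0476). These libraries were picked by Cxcr6, the gene most like Cd160 (Pearson's r of 0.89 over the 32 libraries). The CXCR6neg one left out also had the highest Cd160 of its group (178 CPM). Leaving them out therefore tends to widen the Cd160 difference, so that this pass is not independent support.

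Spleen cells gave a further reference for the liver fractions, with the sort differing as well as the organ, so that the effects of the 2 cannot be told apart. Markers of B cells summed to 88.4 to 133 CPM in CD-HFD CXCR6pos and 333 to 1324 CPM in CD-HFD spleen, and their part in the values was not tested. Under CD-HFD, 6 of 6 receptors were higher in CXCR6pos than in spleen cells, where 12.5% of all genes were called higher. Ctla4 differed most, at 177 to 492 CPM in CXCR6pos and 3.14 to 36.1 CPM in spleen (log2 fold change 4.84 ± 0.36, edgeR, adjusted p = 5.38e-12). Cd160 differed least, at 188 to 390 CPM in CXCR6pos and 82.2 to 132 CPM in spleen (1.39 ± 0.28, adjusted p = 0.000295), and lost its call without CXCR6pos replicates 1 and 2 (adjusted p = 0.058). Under ND, 4 of the 6 were higher in CXCR6pos, where 7.43% of all genes were called higher. These were Pdcd1 (1.53 ± 0.41, edgeR, adjusted p = 0.0076), Cd160 (1.34 ± 0.28, adjusted p = 0.00109), Tigit (2.43 ± 0.80, adjusted p = 0.0365) and Lag3, with 17 counts against 1 (ratio 21.1, counting interval 3.30 to 880, adjusted p = 0.00209). Tigit lost its call in 7 of 11 fits that left out 1 library, namely ND CXCR6pos replicates 2 to 5 and ND spleen replicates 1 to 3, with an adjusted p of up to 0.11. It also lost the call with the identical library kept in ND spleen (1.90, adjusted p = 0.0708) or in both groups (1.90, adjusted p = 0.0646).

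CXCR6neg cells exceeded spleen cells in 5 receptors under CD-HFD, where 5.73% of all genes were called higher. Markers of other cells differed as well, with plasmacytoid dendritic cell markers at 604 to 965 CPM in CXCR6neg and 100 to 228 CPM in spleen, and NK cell markers at 463 to 553 CPM in CXCR6neg and 135 to 193 CPM in spleen. The NK sum in CXCR6neg came mostly from Tyrobp and Fcer1g, with 0 counts of Ncr1, as given above. The part of other cells in the receptor values was not tested. The log2 fold change was 3.27 ± 0.42 for Ctla4, 1.99 ± 0.44 for Tigit, 1.94 ± 0.49 for Lag3, 1.54 ± 0.40 for Havcr2 and 1.48 ± 0.27 for Pdcd1. Cd160 had a value of -0.91 ± 0.36 (edgeR, adjusted p = 0.117), although its highest CXCR6neg library (65.0 CPM) lay under its lowest spleen library (82.2 CPM), and it passed in a fit of those 2 groups alone (adjusted p = 0.000357). Under ND, Lag3 alone passed, with 11 counts in CXCR6neg and 1 in spleen (ratio 21.4, counting interval 3.11 to 921, edgeR, adjusted p = 0.0087), where 4.73% of all genes were called higher. The count of called receptors was 0 with the identical library kept in both groups, and 2 without ND CXCR6neg replicate 5 or ND spleen replicate 4.

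The order of the 6 groups was therefore not the same for each receptor. For Pdcd1, Ctla4, Tigit, Havcr2 and Lag3 the highest mean was in CD-HFD CXCR6pos and the second in CD-HFD CXCR6neg. For Pdcd1 these 2 groups and the next, ND CXCR6pos, were separated without overlap (533 ± 59.6, 136 ± 28.2 and 54.1 ± 23.5 CPM; SD, n = 5, 6 and 6). Below these, neighbouring groups overlapped, with CD-HFD spleen at 50.4 ± 25.6, ND CXCR6neg at 19.3 ± 9.17 and ND spleen at 16.5 ± 4.53 CPM. For Ctla4, Havcr2 and Lag3 every pair of neighbours in the order overlapped, and for Tigit every pair but the first. The order below the CD-HFD liver groups is therefore not firm for these 4. Cd160 ran in another order. Both CXCR6pos groups came first (276 ± 94.5 CPM under CD-HFD and 243 ± 115 under ND), then ND CXCR6neg (123 ± 74.5), CD-HFD spleen (108 ± 18.9) and ND spleen (102 ± 24.1). CD-HFD CXCR6neg was last (56.2 ± 9.71 CPM) and did not overlap with ND spleen.

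Genes whose levels ran most like each receptor were ranked by Pearson's r of log2 CPM over the 32 libraries, among 5575 genes. These r are descriptions, since the libraries share groups and depths, and r of the deviations from the group means is given after each. Cd160 was most like Cxcr6 (r = 0.89, 0.71 within groups), followed by Cd8a (0.87, 0.74), which codes for the CD8 alpha chain, Cd7 (0.82, 0.58), Padi2 and Fgl2. Ctla4 was most like Rgs16, a regulator of G protein signalling (0.93, 0.66), Prdm1, the gene of Blimp-1 (0.89, 0.55), Tigit (0.88, 0.55), Trps1 and the cytokine gene Il10. Tigit was most like S100a11 (0.91, 0.73), the granzyme gene Gzmk (0.89, 0.56), Maf (0.88, 0.59), Ctla4 and Rgs16.

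Pdcd1 was most like Vamp8 (0.89, 0.40 within groups), Gzmk (0.89, 0.39), the chemokine gene Ccl5 (0.89, 0.50), the granule protein gene Nkg7 (0.88, 0.33) and S100a11. Havcr2 was most like Tnfrsf18, which codes for GITR (0.85, 0.70), Maf (0.85, 0.59), Il10 (0.84, 0.63), Coch and Plscr1. Lag3 was most like Ndfip1 (0.80, 0.56), Rhoh (0.79, 0.62), Serpina3f (0.78, 0.60), Perp and Tigit. With a prior count of 0.5 in place of 2, the number of the 5 names kept was 5 for Pdcd1 and Cd160, 4 for Tigit, 3 for Lag3 and 2 for Ctla4 and Havcr2. Among the receptors themselves, Cd160 had an r of 0.06 to 0.36 with the other 5 over libraries, and those 5 had an r of 0.51 to 0.88 with each other. Within groups the ranges overlapped, at -0.10 to 0.50 for Cd160 with the other 5 and -0.11 to 0.55 among those 5. There r was 0.50 for Pdcd1 with Cd160, above its r with any of the other 4, and -0.11 for Pdcd1 with Lag3, -0.03 for Havcr2 with Lag3 and 0.55 for Ctla4 with Tigit.

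**Figure D3:**
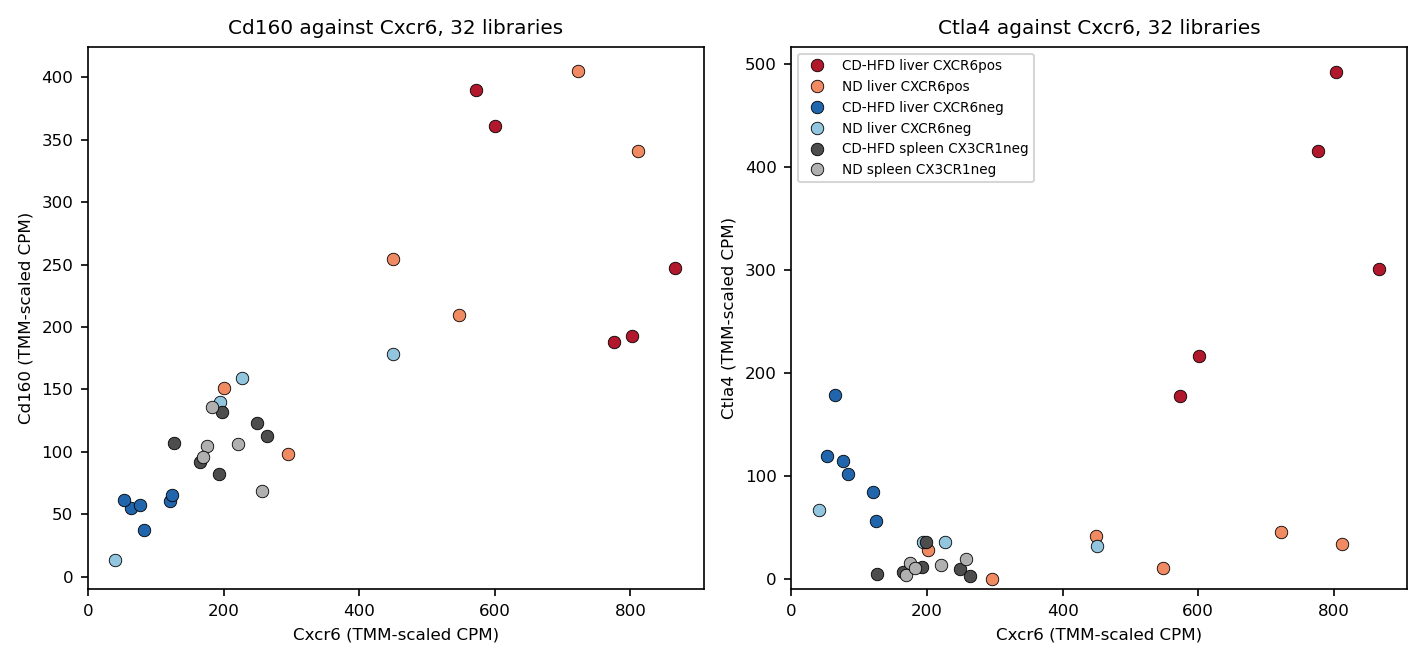
Cd160 (left) and Ctla4 (right) against Cxcr6, the gene of the sort, in 32 libraries (TMM-scaled CPM, linear axes); each point is a library, coloured by group. Between groups, Cd160 is high where Cxcr6 is high under both diets. Within CD-HFD liver CXCR6pos, replicates 1 and 2 have the least Cxcr6 (573 and 601 CPM) and the most Cd160 (390 and 361 CPM). ND liver CXCR6pos libraries with 201 to 812 CPM of Cxcr6 hold at most 45.0 CPM of Ctla4.

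Further receptors and partners of the same pathways were then counted in CD-HFD against ND CXCR6pos cells, beside a median log2 fold change of -0.001 over all genes tested. Among all genes tested, 4.84% were called higher and 6.45% lower, and these shares stand beside the counts of each list in this comparison. Of 14 other inhibitory receptors 11 could be tested, with 2 higher, 2 lower and a median of 0.03. Klrc1, which codes for NKG2A, averaged 45.2 CPM in CD-HFD and 215 CPM in ND CXCR6pos (log2 fold change -2.01 ± 0.33, edgeR, adjusted p = 5.41e-05). Btla, a receptor of the same ligand as CD160, had 3 counts over CD-HFD and 30 over ND CXCR6pos (adjusted p = 0.00786). Cd200r1 (1.57 ± 0.52, adjusted p = 0.0302) and Cd101 (1.21 ± 0.42, adjusted p = 0.0441) were higher, but lost the call in 5 and 7 of the 11 fits that left out 1 library, in both cases without CD-HFD CXCR6pos replicate 3 or 4 or ND CXCR6pos replicate 5 or 6.

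Of 5 activating molecules linked to the 6 (Cd28, Cd226 and Tnfsf14, which share a ligand or its receptor with them, Cd4 and the CD28 relative Icos) 4 were tested, with 2 higher and 2 lower and a median of -0.48. Cd226, the competitor of TIGIT, was at 41.3, 27.0, 24.9, 40.4 and 0 CPM in CD-HFD CXCR6pos, against 0, 119 and 180 CPM (lowest, median and highest) in ND CXCR6pos. Both zeros were the shallowest library of their group, and the rest did not overlap (log2 fold change -2.02 ± 0.28, edgeR, adjusted p = 1.7e-08). Tigit was thus high and Cd226 low in the same CD-HFD libraries. Tnfsf14, which codes for LIGHT, a ligand of the herpesvirus entry mediator, was at 6.22 to 23.6 CPM in CD-HFD and 29.6 to 103 CPM in ND CXCR6pos (-1.84 ± 0.39, adjusted p = 0.000168). Cd28, the competitor of CTLA-4, was at 261 to 314 CPM in CD-HFD and 130 to 246 CPM in ND CXCR6pos (0.87 ± 0.17, adjusted p = 3.5e-05). Icos, which has a ligand of its own that none of the 6 binds, averaged 116 CPM in CD-HFD and 42.1 CPM in ND CXCR6pos (1.64 ± 0.26, adjusted p = 4.77e-07).

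**Figure D4:**
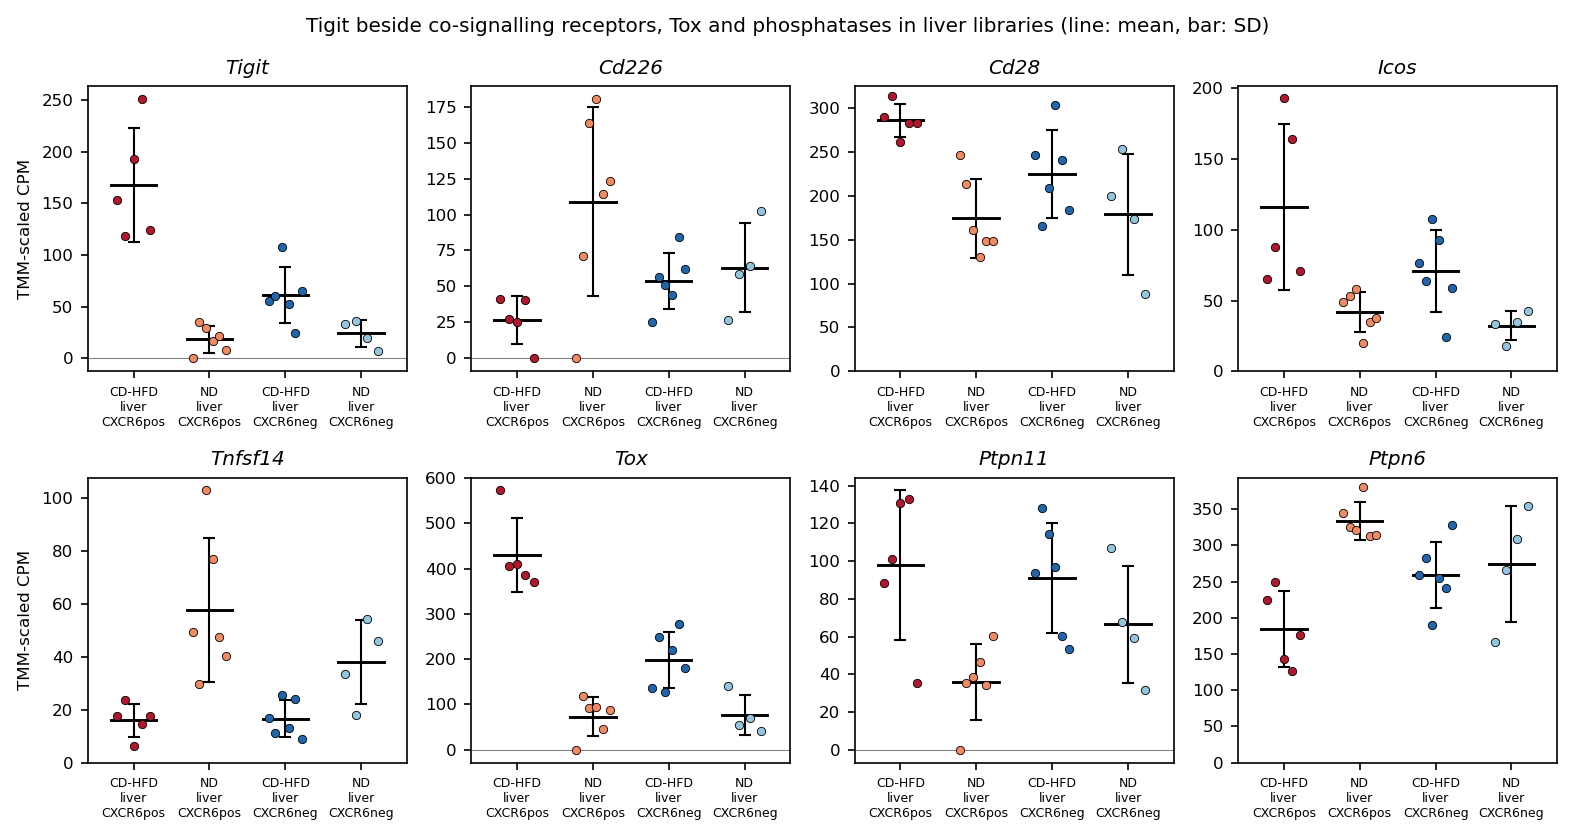
Tigit beside Cd226, Cd28, Icos, Tnfsf14, Tox, Ptpn11 and Ptpn6 in the 4 liver groups (TMM-scaled CPM, linear axes from 0); points are libraries, the line is the mean and the bar the SD. In CD-HFD against ND liver CXCR6pos, Tigit, Cd28, Icos, Tox and Ptpn11 average higher and Cd226, Tnfsf14 and Ptpn6 lower.

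Of 11 genes of proximal signalling, 4 were higher and 1 lower in CD-HFD CXCR6pos, with a median of 0.10. Ptpn11, which codes for SHP-2, averaged 97.7 CPM in CD-HFD and 36.0 CPM in ND CXCR6pos (log2 fold change 1.33 ± 0.25, edgeR, adjusted p = 2.56e-05). Ptpn6, which codes for the related phosphatase SHP-1, was at 127 to 250 CPM in CD-HFD and 313 to 381 CPM in ND CXCR6pos, without overlap (-0.84 ± 0.15, adjusted p = 1.53e-05). The adaptor gene Sh2d1a (1.37 ± 0.18, adjusted p = 6.86e-08) and the kinase gene Fyn (1.07 ± 0.15, adjusted p = 6.87e-07) were higher. Of 14 ligand genes 8 were tested in these T cell libraries, with none higher and 2 lower, Lgals3 (-1.47 ± 0.32, adjusted p = 0.00199, but 0.0544 without CD-HFD CXCR6pos replicates 1 and 2) and Lgals9, which codes for galectin-9 (-0.58 ± 0.17, adjusted p = 0.0122). Lgals9 lost its call without ND CXCR6pos replicate 5 or CD-HFD CXCR6pos replicate 3 or 4.

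Of 15 transcription factors known to act on receptor genes 11 were tested, with 7 higher and 3 lower and a median of 1.42. Over all genes tested, 4.84% were called higher and 6.45% lower. Tox, known as a driver of exhaustion, was at 573, 405, 411, 387 and 371 CPM in CD-HFD CXCR6pos, against 0, 90.6 and 118 CPM in ND CXCR6pos (log2 fold change 2.40 ± 0.23, edgeR, adjusted p = 9.32e-10). No library crossed over, as with Pdcd1. Batf (1.97 ± 0.18, adjusted p = 1.08e-14) and Prdm1 (2.06 ± 0.31, adjusted p = 1.78e-07) were higher as well. Tcf7, which codes for TCF1 of stem-like cells, averaged 56.1 CPM in CD-HFD and 231 CPM in ND CXCR6pos (-2.05 ± 0.20, adjusted p = 8.97e-15).

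In CXCR6pos against CXCR6neg under CD-HFD, 4.76% of all genes tested were called higher and 6.38% lower. The same lists there gave 2 higher and 2 lower of the other inhibitory receptors. Cd244a, the gene of 2B4, rose by 3.02 ± 0.56 on the log2 scale (edgeR, adjusted p = 1.96e-05), and Lair1 fell by 2.32 on the log2 scale (± 0.45, adjusted p = 5.18e-05). The other calls, Cd200r1 (1.58 ± 0.54, adjusted p = 0.0395) and Klrc1 (-1.18 ± 0.37, adjusted p = 0.0363), were each lost in 6 of 11 fits that left out 1 library. For Cd200r1 these left out CXCR6pos replicate 3, 4 or 5 or CXCR6neg replicate 1, 2 or 4, and for Klrc1 CXCR6pos replicate 1, 2 or 5 or CXCR6neg replicate 3, 4 or 6. Among activating receptors Icos alone passed (0.76 ± 0.24, adjusted p = 0.0241), and lost its call in 5 of 11 fits that left out 1 library (CXCR6pos replicate 3 or 4, CXCR6neg replicate 2, 5 or 6). Cd226, with 26.7 CPM in CXCR6pos and 53.9 CPM in CXCR6neg, did not pass (-0.68 ± 0.34, adjusted p = 0.224). Of signalling genes Fyn was higher (1.00 ± 0.15) and Ptpn6 lower (-0.53 ± 0.16, adjusted p = 0.016), a call lost without CXCR6pos replicate 3 or 4 or CXCR6neg replicate 6. Of transcription factors 6 were higher and 1 lower, among them Nr4a2 (1.71 ± 0.22), Tox (1.15 ± 0.21), Batf (0.78 ± 0.16) and Tcf7 (-2.36 ± 0.20). Of the ligand genes 2 were lower, H2-Ab1 (-2.08 ± 0.48, adjusted p = 0.00357) and H2-Aa (-1.52 ± 0.49, adjusted p = 0.0451), MHC class II genes that other cells also carry, and H2-Aa lost its call whichever of the 11 libraries was left out.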

How the data were processed

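The authors deposited 1 table of raw counts, 22865 gene symbols by library, with no normalization. Per the labels' protocols, cDNA was primed with oligo-dT carrying barcodes and unique molecular identifiers and 3′ ends were sequenced. Per the submitters' processing notes, GRCm38.p6 is the named build and DESeq2 1.14.1 the named tool. The aligner, the counting program, the use of strand and whether identifiers were collapsed are not stated in any source used here. Of the symbols 22662 matched GENCODE on GRCm38.

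The labels name 35 samples in 6 groups. Of 35 columns, 34 matched a sample by name, and 1 matched none and was not used. That column is named as replicate 6 of ND CXCR6neg, the smallest group, a sample the labels do not hold, while CD-HFD CXCR6pos replicate 6 has no column of its name and was not analysed here. Which group the column belongs to is therefore not known. An identical pair of columns was left out, which leaves 32 libraries. Genes were filtered with filterByExpr by group (minimum count 10), which kept 6174, all 6 receptors among them. Counts were scaled by TMM (factors 0.944 to 1.37) and compared by edgeR 4.0.16 (quasi-likelihood F test, R 4.3.3) with all 6 groups in 1 fit, Benjamini-Hochberg adjustment over all genes and a threshold of 0.05. The SE is the log2 fold change divided by the square root of F. Where a group had 1 count, the ratio of counts with an exact 95% interval is given, and no interaction. The script was tested on simulated data. Alternatives were DESeq2 1.42.0, other size factors, no filter, left-out libraries, the identical library kept, and fits of the groups compared with and without a replicate block.

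All 6 receptors are named, the up to 4 genes per list with the smallest p, the 5 genes most like each receptor (at least 20 CPM in some group) and the genes of the sort. Cell type markers were given as sums. The members, lists and tests were chosen with earlier results of these data known, so that none is independent evidence.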

Additional observations from a re-analysis of the deposited data

Results flagged for a closer look

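Of 36 sets (6 receptors in 6 groups), 4 held a library far from the rest of its group, where chance marks about 1 in 20. Ctla4 was at 66.7 CPM in ND liver CXCR6neg replicate 2, with the next library at 36.1 CPM. The same library had the lowest Cd160 of its group (13.3 CPM) and the lowest Cxcr6 (40.0 CPM). Ctla4 was at 36.1 CPM in CD-HFD spleen replicate 6, with the next at 11 CPM. Lag3 was at 3.59 CPM, from 1 count, in ND spleen replicate 3 and at 0 in the other 4 libraries. Cd160 was at 37.6 CPM in CD-HFD liver CXCR6neg replicate 2, with the next at 55.3 CPM.

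The effect of diet differed between liver CXCR6pos and spleen cells, by the test of the difference itself, in Pdcd1 (1.95 on the log2 scale, edgeR, adjusted p = 0.0233), Ctla4 (3.52, adjusted p = 0.00793) and Havcr2 (3.08, adjusted p = 0.00539). Havcr2 alone held in all alternatives. Pdcd1 and Ctla4 lost the call in the fits named above (edgeR, adjusted p up to 0.0881 and 0.0551).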

How the results depend on the processing

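The levels of all 36 sets moved by less than 1 SD without TMM factors. They did so without each library in turn as well, but that outcome was fixed in advance. Leaving out 1 library cannot move a group mean by 1 SD of its group. Of the called values of the 6 receptors none reversed, and those that lost the call are named beside the results. Receptor values that changed sign were not called in any fit. With 1 library left out each, the log2 fold change ran from -0.092 to 0.28 for Cd160 with diet in CXCR6pos, from -0.046 to 0.10 for Cd160 and -0.51 to 0.16 for Ctla4 with diet in spleen, from -0.11 to 0.26 for Cd160 between CXCR6pos and spleen in diet effect, and from -1.61 to 0.20 for Tigit between CXCR6neg and spleen in diet effect. It ran from -0.45 to 0.15 for Tigit and -0.36 to 0.26 for Lag3 in CXCR6pos against CXCR6neg under ND, and from -0.13 to 0.56 for Havcr2 in CXCR6neg against spleen under ND. The number of receptors called ran from 1 to 2 for diet in CXCR6neg, 0 to 1 for diet in spleen, 1 to 2 for CXCR6neg against spleen under ND, 0 to 1 for the diet effect between liver fractions, and 1 to 3 for that between CXCR6pos and spleen.

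With no filter on low counts the called receptors were 4 for diet in CXCR6neg, 1 for diet in spleen, 3 for CXCR6neg against spleen under ND and 1 for the liver interaction, and Cd160 was at -0.011 for CXCR6pos or spleen. DESeq2 called 3 for CXCR6neg against spleen under ND. With the identical library in ND CXCR6neg, 3 were called for diet in CXCR6neg, Tigit was at 0.078 and Lag3 at 0.15 between fractions under ND, and Havcr2 at -0.22 in CXCR6neg against spleen under ND. With it in ND spleen, 2 were called in CXCR6neg against spleen under ND, and Ctla4 was at 0.036 and Cd160 at -0.052 for diet in spleen. With it in both groups, 3 were called for diet in CXCR6neg and 0 in CXCR6neg against spleen under ND, with Ctla4 at 0.037 and Cd160 at -0.050 for diet in spleen, Tigit at 0.078 and Lag3 at 0.15 between fractions under ND, and Tigit at 0.17 for the diet effect in CXCR6neg or spleen. Fits of the groups compared, with no block, called 5 for diet in CXCR6neg and 3 for CXCR6neg against spleen under ND. Counts of called receptors under alternative settings are given without the share of all genes called under the same setting. They therefore describe the setting as much as the receptors.

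The deviations of same-numbered libraries from their group means correlated at -0.06 to 0.08. Between 0 of 5 (CXCR6pos against spleen under ND) and 3 of 5 (diet in CXCR6pos) correlated best with their own number. Whether same-numbered libraries are paired cannot be read from these values. With a replicate block in fits of the groups compared, 4 were called for diet in CXCR6neg, 1 for diet in spleen, 2 in CXCR6pos against CXCR6neg under ND, 3 in CXCR6neg against spleen under ND and 1 in the liver interaction. Under the block Cd160 was at -0.25 for diet in CXCR6pos, -0.049 for diet in spleen and -0.028 for CXCR6pos or spleen, and Tigit at 0.15 and Lag3 at 0.072 between fractions under ND. A further 2 alternatives were chosen after seeing the data. Without the libraries at odds with Cxcr6, 1 was called between fractions under ND, with Tigit there at 0.039, and Cd160 was at -0.089 for diet in CXCR6pos and -0.10 for CXCR6pos or spleen. Without CD-HFD CXCR6pos replicates 1 and 2, 1 was called in the liver interaction, and Cd160 was at -0.41 for diet in CXCR6pos and -0.42 for CXCR6pos or spleen. Calls of related genes were lost as well under settings not named beside them. With diet in CXCR6pos these were Btla under the block (adjusted p = 0.427), Cd200r1, Cd101 and Lgals9 in DESeq2, Cd101 under the block, with no filter and without CD-HFD CXCR6pos replicates 1 and 2, and Cd200r1 and Cd101 without the shallowest libraries and without those at odds with Cxcr6. In CXCR6pos against CXCR6neg under CD-HFD they were Icos and Ptpn6 under the block, Icos and Cd200r1 in DESeq2, Icos and H2-Aa with no filter, Klrc1, Cd200r1 and H2-Aa without the shallowest library, and Klrc1 and H2-Aa without CD-HFD CXCR6pos replicates 1 and 2. The causes were not tested. Lag3, with 1 count over ND spleen, and the zeros of the shallowest libraries are limited by depth.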
